A study of Homo sapiens with 6 samples.

Results

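The HOX genes of human cells labelled DLD-1 were examined as every gene whose symbol is HOX, a cluster letter from A to D and a paralog number, which gave 39 of the 19395 genes in the count table. Polyadenylated RNA was sequenced from 3 libraries labelled oeTNFRSF12A and 3 labelled oeControl. DLD-1 is an established colorectal adenocarcinoma line, described in the labels as epithelial. The oeTNFRSF12A cells had the genotype TNFRSF12A overexpression and received doxycycline (0.1 µg/mL) over 48 h, whereas the oeControl cells were labelled WT and untreated. Overexpression of this TWEAK receptor and exposure to doxycycline therefore cannot be told apart, and the labels do not say if control cells hold the inducible construct. Nothing in the labels says that replicates came from separate cultures, and p-values here reflect only how these 6 samples vary, which may be technical.

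HOX genes encode homeodomain transcription factors that give cells their position along the head-to-tail axis. They lie in 4 clusters, and their order on the chromosome follows their order of expression along the body, with low paralog numbers anterior and high numbers posterior. HOX proteins bind DNA together with TALE homeodomain cofactors of the PBX, MEIS and PKNOX families. Polycomb complexes keep the clusters silent and MLL complexes keep them active, and retinoic acid is a classical inducer of anterior members. In the gut, caudal-type CDX factors act upstream of posterior HOX genes.

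Library totals ranged from 18154839 to 18406885 counts, of which 1245 to 1502 per library fell on HOX genes. TNFRSF12A held 404, 365 and 423 counts in the controls and 1203, 1133 and 1305 in the oeTNFRSF12A libraries, a 3.00-fold rise (log2 fold change 1.59, SE 0.06, edgeR adjusted p = 4.17e-16). Across the table, 5402 of 12758 tested genes (42.3%) passed an adjusted p of 0.05 (edgeR's quasi-likelihood test, Benjamini-Hochberg), where oeTNFRSF12A was higher for 21.2% and lower for 21.1%. Markers of the labelled tissue were mostly missing. Of 15 colon epithelial markers 11 stayed under 1 CPM (CPM being counts scaled to library size) in all 6 libraries, among them EPCAM with 13 counts in all and CDX2 with 4, while CDX1, CEACAM5 and MUC2 had 0 counts. The summed level of the 15 was 359 to 364 CPM in the controls and 343 to 355 CPM in the oeTNFRSF12A libraries, most of it KRT8 and KRT18. VIM, the mesenchymal intermediate filament gene, stood at 4620 ± 107 CPM in the oeTNFRSF12A libraries (SD, n = 3), and 4 of 9 mesenchymal markers reached 1 CPM in every library, the 9 summing to 5692 to 5990 CPM in the controls and 5673 to 5899 CPM in the oeTNFRSF12A libraries. DCN and LUM had 0 counts, and THY1 had 4. Some of these markers differed between the groups along with HOX genes: CDH1 (log2 fold change -0.92), COL1A1 (-0.85) and COL1A2 (-0.35) fell, and VIM (0.13) and COL3A1 (0.23) rose. The 5 endothelial markers summed to 1.27 to 1.78 CPM in the controls and 0.647 to 0.981 CPM in the oeTNFRSF12A libraries, and the 6 blood cell markers to 1.54 to 2.11 and 1.47 to 2.02 CPM. Their part in the HOX differences was not tested. In bulk RNA fewer cells expressing a gene and less RNA per cell cannot be told apart.

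HOX expression in these cells was concentrated in the HOXB cluster. HOXB genes gave 80.5% ± 1.2 of all HOX counts in the controls and 80.0% ± 1.54 in the oeTNFRSF12A libraries (SD, n = 3 per group), HOXA genes 18% ± 1.22 and 18.5% ± 1.52, HOXC genes 0.987% ± 0.0967 and 1.04% ± 0.299, and HOXD genes 0.503% ± 0.122 and 0.447% ± 0.33. Of the 39 genes, 31 had at least 1 count, 18 had a count in every library and 10 reached 1 CPM in every library. The other 8 (HOXB1, HOXC5, HOXC10, HOXC11, HOXC12, HOXD10, HOXD11 and HOXD12) were at 0 in all 6 libraries, which allows a level of up to 0.0553 CPM in the controls and 0.0543 CPM in the oeTNFRSF12A libraries by a floor of 3 counts per group. Only 11 members had enough counts for the test, 7 from HOXB and 4 from HOXA, so nothing below on tested members speaks for the HOXC and HOXD clusters.

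**Figure D1:**
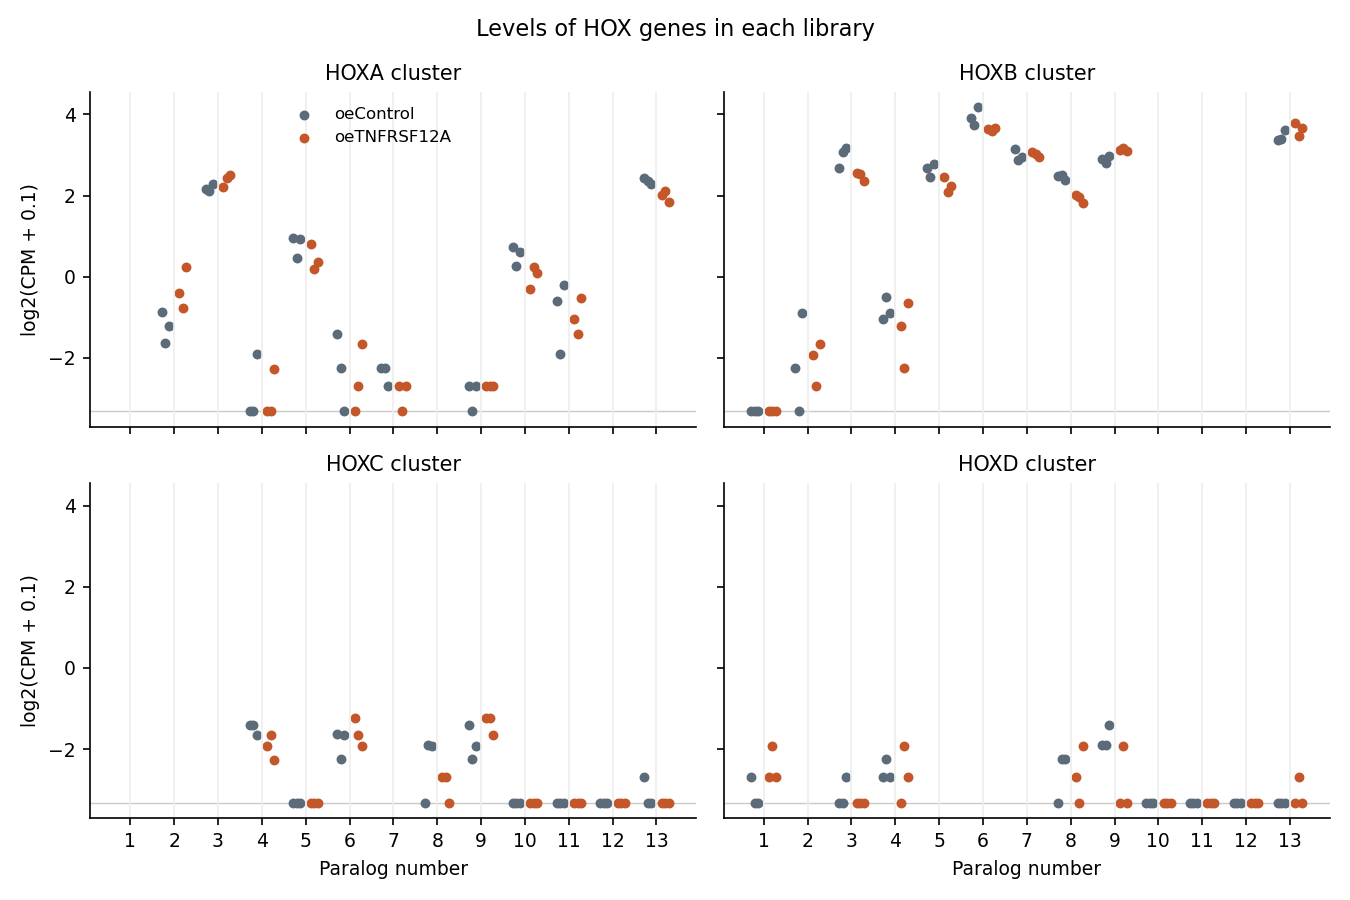
Levels of HOX genes, as log2(CPM + 0.1), against its paralog number in the 4 clusters, with 1 point per library and the grey line marking 0 counts. HOXB3, HOXB5 to HOXB9 and HOXB13 form the high set in both groups, HOXA3 and HOXA13 are the highest HOXA genes, and every HOXC and HOXD point lies below 1 CPM.

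The HOXB cluster (chromosome 17, positions 48528526 to 48729178, GRCh38, GENCODE release 29) was active from HOXB3 onward with a gap at HOXB4. HOXB4, which expands blood stem cells when supplied in excess, had 7, 11 and 8 counts in the controls and 6, 2 and 10 in the oeTNFRSF12A libraries, while HOXB3 and HOXB5 on either side of it had 93 to 161 and 76 to 123. HOXB2, a hindbrain gene, had at most 8 counts in a library and HOXB1 had 0. Per kilobase of annotated exon, HOXB6 was highest in the controls at 5.92 ± 0.913 CPM per kilobase, which placed it at the 50.3rd percentile of the tested genes with a known length. HOXB7 followed at 5.14 ± 0.509, and the control ranges of these neighbours in the order overlapped. HOXB13 (3.16 ± 0.302), HOXB5 (3.02 ± 0.352), HOXB9 (2.85 ± 0.176) and HOXB8 (2.63 ± 0.12 CPM per kilobase) formed the next tier, each overlapping the next in the control libraries, and all of them lay below every HOXB7 control. HOXB3 stood below that tier at 1.05 ± 0.18 CPM per kilobase, close to HOXA3 (1.03 ± 0.0628), HOXA13 (0.99 ± 0.058) and HOXA5 (0.961 ± 0.187), and no neighbours among these were separated. HOXA10 was separate again at 0.368 ± 0.0624 CPM per kilobase. The control percentiles were 45.7 for HOXB7, 32 for HOXB13, 14.3 for HOXB3 and 6.05 for HOXA10. HOXB6 was at 44.5 when the transcript with the longest coding sequence gave each length. HOXB3 has 13 annotated transcripts and 7456 bp of exon, and its control level came to 1.87 CPM per kilobase when the 4208 bp transcript with the longest coding sequence was used as its length.

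The HOXA cluster (chromosome 7, positions 27092993 to 27200106) was broken up, with its higher genes at paralog numbers 3, 5, 10 and 13 and lower genes between them. HOXA4, HOXA6, HOXA7 and HOXA9 had 0 to 5 counts per library, and HOXA11, a gene of limb, uterus and kidney development, had 3 to 14. HOXA10, which patterns the uterus, had 13 to 28. The HOXC cluster (chromosome 12, positions 53938765 to 54056030) gave 9 to 16 counts per library in all, from HOXC4, HOXC6, HOXC8 and HOXC9 and a single HOXC13 count. The HOXD cluster (chromosome 2, positions 176092891 to 176190907) gave 2 to 10 counts per library, and its posterior genes HOXD10 to HOXD13, which pattern limbs and the genital tract, had 1 count among them. By paralog number, the anterior genes 1 to 3 gave 17.0% ± 1.64 of the HOX counts in the controls, the central genes 4 to 8 gave 49.5% ± 1.41 and the posterior genes 9 to 13 gave 33.5% ± 0.345.

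The coding sequences of the homeobox are shown for 4 members of the comparison below, because HOX genes share this stretch and reads falling in it are the ones most likely to be divided between paralogs. Each is the run of 60 codons of the homeodomain, from the GENCODE release 29 transcript with the longest coding sequence (GRCh38), placed by the conserved tryptophan at codon 48. All 4 genes lie on the minus strand, the HOXB genes on chromosome 17 and HOXA13 on chromosome 7. The runs begin at codon 146 in HOXB6, 185 in HOXB9, 216 in HOXB13 and 322 in HOXA13. The genes themselves span 48595751 to 48604992 for HOXB6, 48621159 to 48626356 for HOXB9 and 48724763 to 48729178 for HOXB13 on chromosome 17, and 27193503 to 27200106 for HOXA13 on chromosome 7. Capitals mark the codons of the recognition helix, 42 to 58, which contacts the major groove of DNA.
HOXB6: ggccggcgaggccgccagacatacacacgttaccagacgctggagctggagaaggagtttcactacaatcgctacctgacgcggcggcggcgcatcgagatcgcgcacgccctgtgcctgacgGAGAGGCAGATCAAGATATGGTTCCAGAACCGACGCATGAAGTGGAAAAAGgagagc
HOXB9: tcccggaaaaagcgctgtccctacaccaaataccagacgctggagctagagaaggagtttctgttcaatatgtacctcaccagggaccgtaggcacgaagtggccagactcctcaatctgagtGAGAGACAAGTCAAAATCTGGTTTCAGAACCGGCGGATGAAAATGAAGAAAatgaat
HOXB13: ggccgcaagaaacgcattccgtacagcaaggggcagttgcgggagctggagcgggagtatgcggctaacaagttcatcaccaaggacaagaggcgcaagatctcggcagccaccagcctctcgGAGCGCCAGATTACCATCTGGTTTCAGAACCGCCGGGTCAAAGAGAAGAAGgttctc
HOXA13: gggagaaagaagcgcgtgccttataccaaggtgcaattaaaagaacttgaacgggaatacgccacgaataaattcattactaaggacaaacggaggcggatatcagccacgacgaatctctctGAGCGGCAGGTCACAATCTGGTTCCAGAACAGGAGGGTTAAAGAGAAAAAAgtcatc

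Among the 11 tested members, 55 pairs were compared. HOXB3 and HOXA3 shared the most homeobox bases, 90.6%. HOXB6 and HOXB7 shared 88.9%, HOXB5 and HOXA5 shared 82.2%, and HOXB13 and HOXA13 shared 69.4%. Only the transcript with the longest coding sequence of each gene was compared for identical runs. The longest run of any pair was 51 bp, between HOXB6 and HOXB7, and the labels do not state the read length. Overlap on the genome was larger than such likeness for some members. HOXB6 shares 433 bp of exon with HOXB3 on the same strand and 425 bp with the antisense gene HOXB-AS3, together 32.9% of its exon length, so counts of HOXB3 and HOXB6 may be divided with error. HOXA10 shares 608 bp with the antisense HOXA10-AS and 368 bp with the protein-coding model AC004080.3, and HOXA13 shares 86 bp with HOTTIP. HOXA3 shares 17.9% of its exon length with other gene models, including 374 bp with HOXA-AS2. For HOXB3 the shared part is 13.2%, including 374 bp with the antisense HOXB-AS1 and 159 bp with HOXB4. HOXB7, HOXB8, HOXB9 and HOXB13 share no exon base with another gene model. The strand setting of the counting is not given, so antisense reads cannot be told apart from those of the HOX gene. Of the 24 noncoding HOX cluster genes that were looked for by symbol, such as HOTAIR, HOTTIP and HOXB-AS3, 0 were found in the count table.

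Of the 11 tested HOX genes 5 fell in the oeTNFRSF12A libraries, 0 rose and 6 did not pass. HOXB3, HOXB5, HOXB6, HOXB8 and HOXA13 were lower, at 0.688 to 0.796 of their control level. The call rate of 45.5% was near the 42.3% over all tested genes, and the lower calls (45.5%) stood against 21.1% over all genes and 23.2% over the 3214 tested genes with mean counts in the same span as the members (20.8 to 252). The median log2 fold change of the 11 was -0.35, against 0.003 over all tested genes. In 7 of the 11 members the group ranges in CPM stayed apart, 6 lower and 1 higher, where 51.3% of all tested genes showed no overlap, 25.7% lower and 25.7% higher. With a minimum fold of 1.5 built into the edgeR test, 217 genes of the table and 0 members passed. The count of 0 higher was the same in DESeq2; at an unadjusted p under 0.05 in edgeR, 1 further gene, HOXB9, lay higher, and HOXA10 lay lower. Without oeControl replicate 1 or oeControl replicate 3 the lower calls numbered 3, as in DESeq2. HOXB13 was called higher without oeTNFRSF12A replicate 2. HOXA2, under the low-count filter with all 6 libraries, entered some fits with 1 library left out. It was called higher there without oeControl replicate 1 or oeTNFRSF12A replicate 2. Its level was 0.221 to 0.444 CPM in the controls and 0.491 to 1.08 CPM in the oeTNFRSF12A libraries. HOXA2 thus passed the filter through the group where it was higher, and its calls say nothing on the 11.

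**Figure D2:**
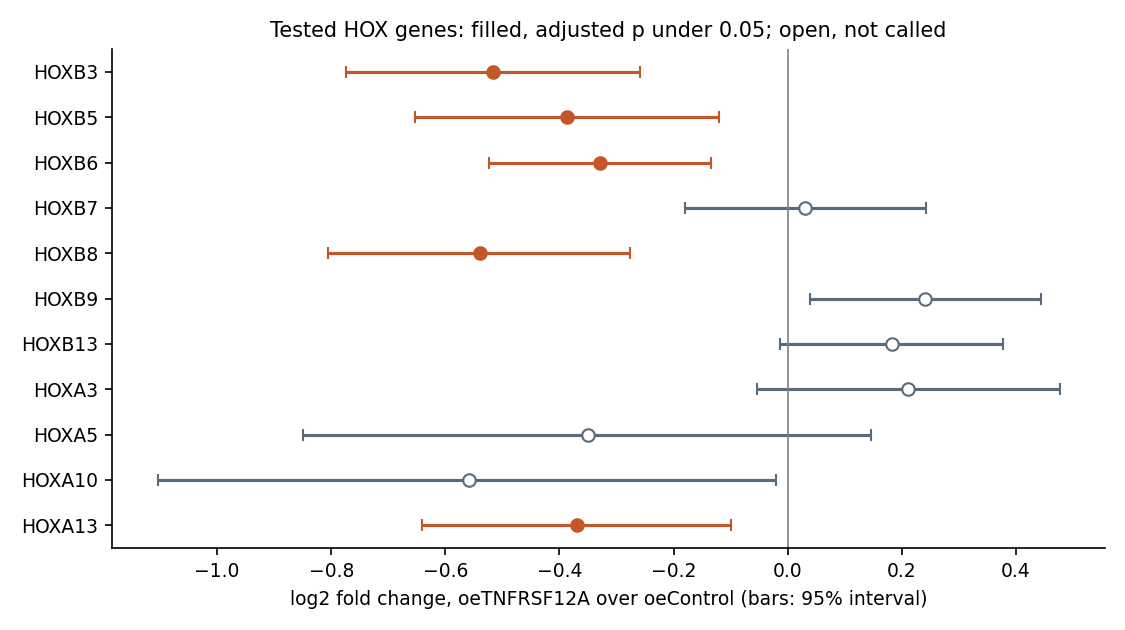
Log2 fold change of oeTNFRSF12A over oeControl for the 11 tested HOX genes with 95% intervals from the edgeR fit, HOXB genes above HOXA genes, each in order of paralog number. HOXB3, HOXB5, HOXB6, HOXB8 and HOXA13 lie below 0 with an adjusted p under 0.05, and HOXB9 and HOXB13 lie above 0 without passing.

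HOXB8, a gene that blocks differentiation of myeloid progenitors when overexpressed, had the lowest p of the family. Its counts were 99, 101 and 93 in the controls and 72, 70 and 63 in the oeTNFRSF12A libraries. Every oeTNFRSF12A library lay below every control. The level went from 5.40 ± 0.246 to 3.71 ± 0.282 CPM (SD, n = 3 per group), a log2 fold change of -0.54 (SE 0.13; edgeR adjusted p = 0.00147).

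HOXB3, an anterior gene of the hindbrain and pharyngeal arches, held 114, 151 and 161 counts in the controls against 106, 104 and 93. The groups did not overlap, but the lowest control was close to the highest oeTNFRSF12A library. The level went from 7.85 ± 1.34 to 5.49 ± 0.417 CPM, a log2 fold change of -0.52 (SE 0.12, edgeR adjusted p = 0.00178). HOXB3 and HOXB8 kept their call without any single library and in DESeq2, where their adjusted p-values were 0.0102 and 0.0187.

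HOXB6, highest per kilobase in the controls, had 269, 241 and 327 counts in the controls and 225, 218 and 235 in the oeTNFRSF12A libraries. The control with the most counts stood well above the other two. Mean levels were 15.4 ± 2.38 CPM and 12.3 ± 0.391 CPM (log2 fold change -0.33, SE 0.09, edgeR adjusted p = 0.00694), and without oeControl replicate 3 it was -0.20 with an adjusted p of 0.0901. HOXB5, a central gene with roles in lung and in neural crest of the gut, had 114, 97 and 123 counts in the controls and 98, 76 and 86 in the oeTNFRSF12A libraries. The highest oeTNFRSF12A count lay just above the lowest control count, and in CPM, which also corrects for library size, the ranges were 5.37 to 6.78 and 4.14 to 5.35. The log2 fold change was -0.39 (SE 0.13, edgeR adjusted p = 0.0183). That call was lost without oeControl replicate 1 (adjusted p = 0.0566), oeControl replicate 3 (0.0984) or oeTNFRSF12A replicate 2 (0.0964), and in DESeq2 (0.0903).

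HOXB7, whose product drives growth factor expression in melanoma and breast cancer cells, did not pass (edgeR adjusted p = 0.83). It held 157, 130 and 139 counts in the controls and 153, 148 and 142 in the oeTNFRSF12A libraries, so the groups overlapped. The fold was 1.02 with a 95% interval of 0.882 to 1.18, which leaves out the folds estimated for HOXB3 (0.699), HOXB5 (0.765), HOXB6 (0.796) and HOXB8 (0.688). Those folds have intervals of their own. The intervals of HOXB5 (0.636 to 0.920) and HOXB6 (0.696 to 0.911) overlap that of HOXB7. The intervals of HOXB3 (0.585 to 0.836) and HOXB8 (0.572 to 0.826) do not. The differences between members were not tested.

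The posterior HOXB genes were the only tested HOXB members apart from HOXB7 with estimates above 0. HOXB9, which in mice patterns the rib cage, had 132, 125 and 142 counts in the controls and 158, 164 and 158 in the oeTNFRSF12A libraries. All 3 oeTNFRSF12A libraries lay above all controls. The level was 7.35 ± 0.453 and 8.69 ± 0.22 CPM (log2 fold change 0.24, SE 0.10), and the edgeR adjusted p of 0.0508 just missed the threshold; with library totals alone as the scaling it passed (0.0342). HOXB13, a gene of the tail region, hindgut and prostate, had 186, 188 and 221 counts in the controls and 251, 202 and 234 in the oeTNFRSF12A libraries, which overlap. Its log2 fold change was 0.18 (SE 0.09, edgeR adjusted p = 0.126), and without oeTNFRSF12A replicate 2 it was 0.26 with an adjusted p of 0.045.

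As a share of all HOXB counts within a library, a measure that needs no scaling between libraries, HOXB9 and HOXB13 were higher in every oeTNFRSF12A library than in any control. HOXB9 made up 12.2%, 12% and 11.6% of HOXB counts in the controls and 14.7%, 16.6% and 15.4% in the oeTNFRSF12A libraries. HOXB13 made up 17.2%, 18% and 18.1% in the controls and 23.4%, 20.5% and 22.8%. These shares sum to a fixed total, so a fall of some members raises the share of the rest. In CPM the ranges of HOXB13 did overlap, and 51.3% of all tested genes had ranges without overlap. HOXB5, HOXB6 and HOXB8 took smaller shares without overlap, for HOXB8 8.82% ± 1.08 in the controls and 6.66% ± 0.483 in the oeTNFRSF12A libraries, and HOXB3 and HOXB7 overlapped. The count ratio of HOXB9 to its neighbour HOXB8 was 1.33, 1.24 and 1.53 in the controls and 2.19, 2.34 and 2.51 in the oeTNFRSF12A libraries, a pair chosen after the values were seen and given without a test. Pooled over clusters, the posterior genes 9 to 13 took 38.4% ± 0.45 of HOX counts in the oeTNFRSF12A libraries, against 33.5% ± 0.345 in the controls. The central genes 4 to 8 took 44.5% ± 0.828 against 49.5% ± 1.41, and the anterior genes 17.1% ± 1.11 against 17.0% ± 1.64. The clusters differed in direction. Posterior HOXB genes took 30.3% ± 0.9 against 23.9% ± 0.537 in the controls, but posterior HOXA genes 7.59% ± 0.669 against 9.06% ± 0.742. Anterior HOXA genes took 8.86% ± 1.43 against 6.46% ± 0.232, and anterior HOXB genes 8.08% ± 0.517 against 10.5% ± 1.74.

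**Figure D3:**
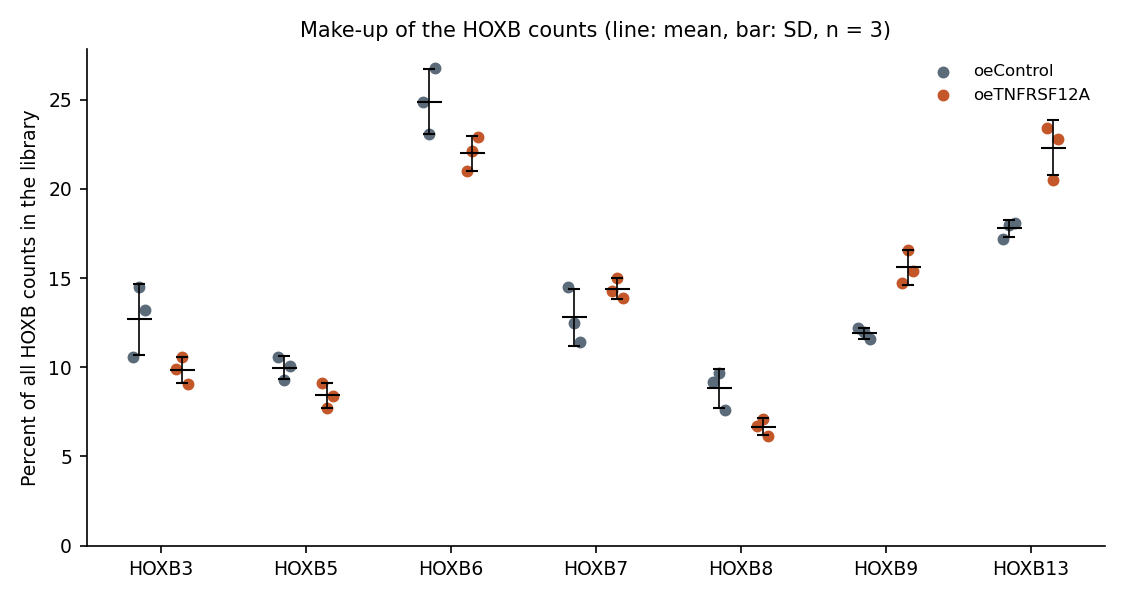
Percent of all HOXB counts in a library that fell on each of the 7 tested HOXB genes, with 1 point per library, the mean as a line and the SD as a bar (n = 3 per group). HOXB9 and HOXB13 take larger shares in every oeTNFRSF12A library than in any control, and HOXB5, HOXB6 and HOXB8 smaller shares.

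Among tested HOXA genes 1 passed, at the posterior end. HOXA13, a paralog of HOXB13 that patterns the distal limb and hindgut, had 96, 91 and 86 counts in the controls and 72, 78 and 65 in the oeTNFRSF12A libraries. Every oeTNFRSF12A library lay below every control. Mean levels were 5.03 ± 0.295 CPM and 3.90 ± 0.376 CPM (log2 fold change -0.37, SE 0.13, edgeR adjusted p = 0.0255). That call was lost without oeControl replicate 1 (adjusted p = 0.0926), oeControl replicate 2 (0.0572) or oeTNFRSF12A replicate 3 (0.101), and in DESeq2 (0.136). The ratio of HOXB13 to HOXA13 counts was 1.94, 2.07 and 2.57 in the controls and 3.49, 2.59 and 3.60 in the oeTNFRSF12A libraries, again a pair named after its values were seen, and its nearest values, 2.57 and 2.59, almost meet.

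A promoter sequence was available for 20 of the 39 members, and of the 5 that fell only for HOXA13. The 250 bases upstream of its RefSeq start (GRCh38.p14, chr7:27200092-27200341, minus strand) are printed with each CpG in capitals, since CpG-rich promoters of this kind are where Polycomb and MLL complexes act. The window has 40 CpG, where the median over 35116 promoter windows of the same length was 11, and a GC content of 78%. Among members under the low-count filter, the windows held 31 CpG in HOXD1 and 28 in HOXD8, but 8 in HOXA2 and 4 in HOXD4.
HOXA13 promoter: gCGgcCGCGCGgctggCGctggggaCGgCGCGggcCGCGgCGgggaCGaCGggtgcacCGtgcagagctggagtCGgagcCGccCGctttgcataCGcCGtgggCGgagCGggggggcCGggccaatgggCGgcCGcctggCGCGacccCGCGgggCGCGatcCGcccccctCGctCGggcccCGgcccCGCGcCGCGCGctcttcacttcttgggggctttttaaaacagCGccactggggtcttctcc

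The other tested HOXA genes did not pass. HOXA10 had 28, 20 and 26 counts in the controls and 13, 20 and 18 in the oeTNFRSF12A libraries, which meet at 20, although in CPM the ranges did not overlap. Its log2 fold change of -0.56 (SE 0.26, edgeR adjusted p = 0.0883) had a 95% interval of -1.10 to -0.02. HOXA5, a gene of lung and foregut development, had 33, 23 and 33 counts against 30, 19 and 22 (log2 fold change -0.35, 95% interval -0.85 to 0.15). HOXA3, which patterns the third pharyngeal arch and the thymus, had 79, 76 and 86 counts in the controls and 83, 97 and 104 in the oeTNFRSF12A libraries. Its log2 fold change was 0.21 (SE 0.13, edgeR adjusted p = 0.194), while its paralog HOXB3 fell. The HOXA3 to HOXB3 count ratio was 0.577 ± 0.102 in the controls and 0.945 ± 0.168 in the oeTNFRSF12A libraries. This pair too was named after its values were seen and is given without a test. HOXA3 and HOXB3 share 90.6% of homeobox bases, and division of reads between them was not tested. HOXA5 and its paralog HOXB5 both had estimates below 0 (-0.35 and -0.39).

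The 28 members under the low-count filter had at most 59 counts over all 6 libraries, and 8 of these were at 0. For 17 a ratio of group sums scaled by library size could be formed, and 1 of the 17 exact (Clopper-Pearson) 95% intervals left out 1. That gene was HOXA2, named for its interval, which patterns the second pharyngeal arch and the hindbrain, with 8, 4 and 6 counts in the controls and 12, 9 and 20 in the oeTNFRSF12A libraries. The groups did not overlap, and the ratio was 2.24 with an interval of 1.26 to 4.14 that covers counting error only. Fitted without the filter over 15957 genes, HOXA2 had a log2 fold change of 1.15 and an edgeR adjusted p of 0.029, and none of the other 19 members gained that way passed. HOXD9 had 3, 3 and 5 counts in the controls and 0, 3 and 0 in the oeTNFRSF12A libraries, a ratio of 0.268 (interval 0.048 to 1.01). HOXA11 (ratio 0.837, interval 0.458 to 1.52) and HOXB4 (0.68, interval 0.351 to 1.29) were the others with more than 40 counts. At this depth no difference was detectable in the remaining members.

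Among the TALE cofactors MEIS1 fell and PKNOX1 rose. Of 9 members 6 had enough counts, with 1 call in each direction (33.3% called, against 42.3% over all tested genes), with a median log2 fold change of -0.10. PBX2 stood at 60.4 ± 3.09 and 60.8 ± 2.18 CPM, and PBX3 at 19.6 ± 1.66 and 17.9 ± 0.893 CPM. PBX4 had 15 counts in all and PKNOX2 had 0. MEIS1, a partner of posterior HOX proteins in leukaemia, went from 2.69 ± 0.173 to 1.97 ± 0.126 CPM (log2 fold change -0.45, edgeR adjusted p = 0.0432). PKNOX1, also called PREP1, went from 22.1 ± 0.858 to 24.6 ± 0.838 CPM (0.15, edgeR adjusted p = 0.0498). Both calls sat at the threshold and were lost in DESeq2. MEIS2 (-0.17), MEIS3 (-0.07) and PBX3 (-0.13) did not pass.

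ALDH1A1 and ALDH1A3, 2 enzymes that make retinoic acid, fell. Of 15 tested members of 21, 8 fell and 2 rose, 66.7% called against 42.3% over all tested genes, with a median log2 fold change of -0.19. ALDH1A1, which makes retinoic acid from retinal, had 711 ± 0.376 CPM in the controls and 458 ± 7.17 CPM in the oeTNFRSF12A libraries (log2 fold change -0.63, edgeR adjusted p = 5.2e-15). ALDH1A3, a related enzyme, went from 47.7 ± 0.263 to 34.8 ± 0.255 CPM (-0.46), and DHRS3, a retinal reductase induced by retinoic acid, from 90.7 ± 2.22 to 64.6 ± 4.75 CPM (-0.49); the larger of their edgeR adjusted p-values was 2.92e-08. The binding protein CRABP2 (-0.92), the retinoic acid hydroxylase CYP26B1 (-0.67), and the receptors RARA (-0.33), RARG (-0.19) and RXRA (-0.18) also fell, and the uptake receptor STRA6 (0.66) and the corepressor NCOR1 (0.12) rose; these were named after their values were seen. ALDH1A2, the main embryonic retinoic acid synthase, had 21 counts over all libraries and was not tested, and RDH10, which makes retinal from retinol, did not pass (-0.08, edgeR adjusted p = 0.111). Whether these levels bear on any HOX gene was not tested.

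**Figure D4:**
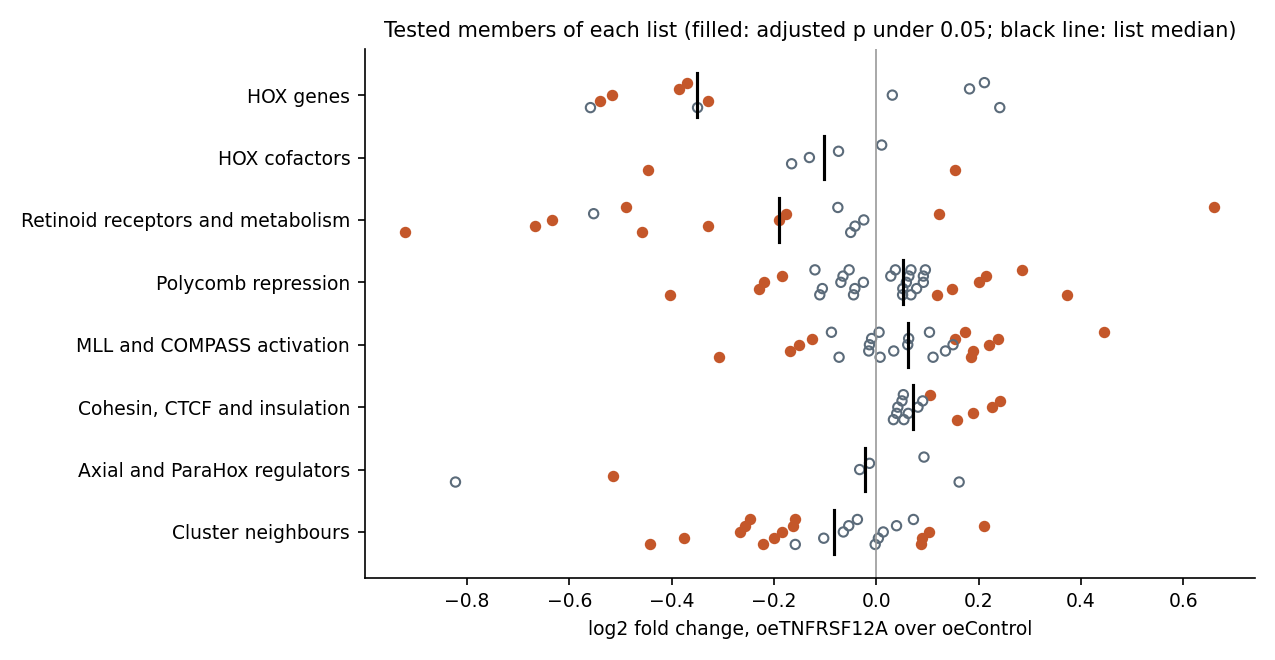
Log2 fold change of oeTNFRSF12A over oeControl for each tested member of the HOX family and of 7 related gene lists, filled where the adjusted p is under 0.05, with the list median as a black line. Medians are -0.35 for the HOX genes and -0.19 for the retinoid genes, and between -0.10 and 0.07 for the others.

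Polycomb and MLL genes were called in both directions. All 31 Polycomb genes were tested, and 6 rose and 4 fell (32.3% called, below the 42.3% over all tested genes, median log2 fold change 0.05). The catalytic subunit EZH2 went from 60.1 ± 1.33 to 73.2 ± 2.53 CPM (0.28, edgeR adjusted p = 7.66e-06), and its partners EED (0.20) and SUZ12 (0.12) and the accessory subunit PHF19 (0.37) rose as well, while the alternative catalytic subunit EZH1 (-0.11, edgeR adjusted p = 0.07) did not pass. CBX6 (-0.23) and CBX7 (-0.40), chromodomain readers of the canonical repressive complex, and PCGF2 (-0.22) and PCGF5 (-0.19) fell. Of 25 tested MLL and COMPASS genes 7 rose and 4 fell (44% called, near the 42.3% over all tested genes, median 0.06). HCFC1 (0.44), RBBP5 (0.24) and KMT2D (0.19) had the lowest p, and KMT2A, the MLL1 methyltransferase that maintains HOX expression, went from 183 ± 1.79 to 168 ± 8.24 CPM (-0.13, edgeR adjusted p = 0.00595). The H3K27 demethylase KDM6B (-0.31), KMT2E (-0.17) and MLLT10 (-0.15) also fell. SETD1A (0.22), PAXIP1 (0.18), KMT2B (0.17) and WDR5 (0.15) also rose. In this list and the Polycomb list, names beyond the 3 of lowest p were chosen after their values were seen. Of 14 genes for cohesin, CTCF and other insulator factors 5 rose and 0 fell (35.7% called, against 42.3% over all tested genes, 21.2% higher and 21.1% lower; 0 lower also in DESeq2 and at an unadjusted p under 0.05), among them SMC1A (0.23), PATZ1 (0.24) and CTCF (0.19).

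Other axial regulators were scarcely expressed. Of 22 genes 17 stayed under 1 CPM in all libraries and 9 had 0 counts, including CDX1, CDX4, GSX1, GSX2, PDX1 and TBXT. Of the 6 tested, 1 fell and 0 rose (16.7% called, against 42.3% over all tested genes, 21.2% higher and 21.1% lower). SALL1, a zinc finger factor of kidney and limb, fell from 35.2 ± 1.01 to 24.6 ± 1.81 CPM (log2 fold change -0.51, edgeR adjusted p = 1.91e-07). The count of 0 higher was the same in DESeq2, and 1 gene, GDF11, lay higher at an unadjusted p under 0.05 in edgeR. GDF11, a secreted factor that shifts HOX codes posteriorly in mice, did not pass (0.16, edgeR adjusted p = 0.0513), nor did MSTN (-0.82, adjusted p = 0.0534).

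Of 30 genes around the clusters 24 reached 1 CPM in every library. The 24 tested lay up to 1040 kb from their cluster, apart from ATP5F1B at 2580 kb, and 4 rose and 10 fell (58.3% called, against 42.3% over all tested genes, 21.2% higher and 21.1% lower, median log2 fold change -0.08). All 5 tested HOXA neighbours fell, a grouping made after the values were seen. These were SKAP2 (-0.19), HIBADH (-0.25), TAX1BP1 (-0.16), JAZF1 (-0.27) and SNX10 (-0.26), 97.8 to 719 kb from the cluster. Near HOXB, TTLL6 (-0.38) and CALCOCO2 (-0.20) fell, and ATP5MC1 (0.21) and NFE2L1 (0.09) rose. PRAC1 and PRAC2, which lie between HOXB9 and HOXB13 and mark hindgut and prostate together with HOXB13, had 0 and 2 counts although HOXB13 had 1282. The HOXC neighbour CALCOCO1 had the largest fall of the list (-0.44, edgeR adjusted p = 1.98e-08), while CBX5 rose (0.09). Near HOXD, LNPK (-0.22) and ATF2 (-0.16) fell and HNRNPA3 (0.10) rose.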

How the data were processed

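RNA was captured on oligo(dT) beads, fragmented, converted to cDNA and amplified, per the labels' protocols. The deposited table holds estimated counts per gene symbol, which the authors gave as whole numbers, so rounding changed nothing. RSEM 1.3.1, HISAT2 2.2.1 and Bowtie2 2.4.5 appear with GRCh38 in the submitters' processing notes, without roles; no label states the annotation or strand setting. A row with no gene name held 0 counts and was left out.

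In R 4.3.3 with edgeR 4.0.16, filterByExpr (minimum count 10) kept 12758 of 19395 genes, TMM factors were 0.988 to 1.01, and the robust quasi-likelihood F test compared the groups, with Benjamini-Hochberg adjustment over all tested genes and calls at an adjusted p under 0.05. The SE is the unshrunken log2 coefficient divided by the square root of F. CPM uses TMM-scaled library sizes. The exact (Clopper-Pearson) intervals of members under the low-count filter and the floors cover counting error only, and PCR copies are not independent molecules. Intervals of tested genes come from the edgeR fit and also reflect variation between replicates. Lengths, positions and homeobox codons come from GENCODE release 29, and the promoter from RefSeq; 12459 tested genes had a length.

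The HOX members and the gene lists were chosen with earlier results of these data known. The naming rule was every HOX member, every cofactor and the 3 tested genes of lowest p in each other list; other names were chosen after their values were seen. Some members and sequences are not reported here, and the plot of levels leaves them out where they apply. The chi-square per gene was 1.61 to 3.35 for replicate pairs and 17.7 to 19.9 for pairs across groups, so no replicates were merged; the largest within a group was between oeTNFRSF12A replicates 1 and 3. Alternatives were other scalings, filters, DESeq2 1.42.0, a replicate block, leaving out each library, a minimum fold of 1.5 and another gene length.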

Additional observations from a re-analysis of the deposited data

How the results depend on the processing

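HOXB3 and HOXB8 kept their calls under every alternative but the minimum fold of 1.5, and no tested HOX gene changed direction except HOXB7, which was not called and went to -0.028 without oeControl replicate 2. The causes of the changes given here were not tested. The number of HOX genes called lower was 3 with DESeq2, 0 at the minimum fold of 1.5 (217 of all genes called there) and 3 to 5 when a library was left out. The number called higher was 1 with library totals alone (HOXB9), 1 without a filter (HOXA2) and 0 to 2 when a library was left out (HOXA2 without oeControl replicate 1; HOXA2 and HOXB13 without oeTNFRSF12A replicate 2). DESeq2 ended the calls on HOXA13 (-0.37) and HOXB5 (-0.39), and library totals alone gave one to HOXB9 (0.26). At the minimum fold the log2 fold changes of HOXA13 (-0.37), HOXB3 (-0.52), HOXB5 (-0.39), HOXB6 (-0.33) and HOXB8 (-0.54) lost their calls with the values unchanged. With a library left out, the log2 fold change was 0.14 to 0.29 for HOXA3, -0.56 to -0.22 for HOXA5, -0.70 to -0.40 for HOXA10, -0.44 to -0.30 for HOXA13, -0.65 to -0.42 for HOXB3, -0.49 to -0.31 for HOXB5, -0.42 to -0.20 for HOXB6, -0.03 to 0.11 for HOXB7, -0.58 to -0.48 for HOXB8, 0.20 to 0.29 for HOXB9 and 0.11 to 0.26 for HOXB13. The same-number correlations of the replicates were -0.0559, 0.0512 and 0.066, so the labels share only a number; with the replicate block the count of all called genes was 5396 and the HOX calls were the same 5 genes, the cofactors had 0 higher and 0 lower, the retinoid list 1 higher and the axial list 1 higher. Cofactor calls higher were 0 with RLE factors, upper-quartile factors, a mean CPM of at least 1 and DESeq2, and calls lower 0 with library totals alone, no filter and DESeq2. Retinoid calls higher were 1 with upper-quartile factors, no filter and DESeq2, and axial calls higher 1 with library totals alone and no filter. With the length of the transcript with the longest coding sequence, control CPM per kilobase was 0.537 for HOXA10, 1.31 for HOXA3, 1.87 for HOXB3, 7.87 for HOXB6, 5.73 for HOXB7 and 2.96 for HOXB8. Leaving out a library was not run for the other lists. HOXC and HOXD genes were under the low-count filter, and without it 0 of them passed.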
